A study of Mus musculus with 12 samples.

Results

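The chemokines and chemokine receptors were examined in the cochlea, the spiral organ of hearing, of mice exposed to noise. Members were the protein-coding genes of the deposited count table whose symbol begins with Ccl, Cxcl, Ccr, Cxcr or Ackr and a number, with Cx3cl1 and Xcr1, and which had at least 10 counts in at least 3 of the 12 libraries. Of 57 genes with such names, 46 met this level and 11 did not, out of 35496 genes in the table. The 46 were 27 ligands, 15 signalling receptors and 4 atypical receptors, and 41 of them had at least 10 counts in all 12 libraries. The member with the fewest qualifying libraries was Cxcl2, with 6, followed by Ccl17 with 9, Cxcr1 with 10, and Cxcl1 and Cxcl17 with 11 each. Just outside were Ccr4 and Cxcl15 with 2 libraries each, and the other 9 genes of the family had none.

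RNA was sequenced from whole cochleae of FVB/NCrl mice at postnatal day 60 that had spent 30 minutes awake at 70 dB SPL (the ambient control level), 94 dB SPL or 105 dB SPL, where SPL is sound pressure level. RNA was taken with TRIzol immediately after the exposure, so the values describe the cochlea at the end of the noise and not later. Each level had 4 libraries, and the study's title concerns noise that causes hearing loss, proteotoxic stress and the proteostasis network. Whether each library holds 1 cochlea, 1 animal or pooled animals is not stated. The p-values therefore reflect only how far samples scatter within groups, part of which may be technical. That scatter was estimated over all 12 libraries together, and not from the groups compared alone.

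Chemokines are small secreted proteins that guide leukocytes, and their families are named for the spacing of conserved cysteines. Each acts through seven-pass receptors coupled to inhibitory G proteins, while atypical receptors bind chemokines without that signalling and remove or transport them. In the cochlea this system is known mainly for drawing monocytes and macrophages into the tissue in the days after acoustic injury, and Cxcl12 with Cxcr4 is known for holding blood cell precursors in bone marrow.

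Libraries held 31141706 to 42317781 counts, and a floor of 3 counts equalled 0.0703 to 0.0966 counts per 1e6 counts (CPM). The tissue label was borne out by hair cell genes, whose 8 listed markers summed to 111 to 129 CPM at 70 dB, 111 to 122 CPM at 94 dB and 111 to 120 CPM at 105 dB, with none at 0. Blood and marrow cell genes were also abundant: 9 erythroid markers summed to 18283 to 22439, 19019 to 32642 and 22472 to 31620 CPM at 70, 94 and 105 dB, and 11 neutrophil markers to 7804 to 9683, 8018 to 15614 and 8604 to 10157 CPM. Replicates 3 and 4 of the 94 dB group stood apart, with erythroid sums of 31513 and 32642 CPM against 19019 and 22784 CPM in replicates 1 and 2 of the same group. Members called in a comparison with the 94 dB group are therefore given with and without this pair of libraries, and listed genes named below that lost a call without it are pointed out. In whole-tissue RNA, fewer cells of a type and less RNA per cell cannot be told apart.

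Promoters were compared because several inflammatory chemokine genes are textbook targets of NF-kappaB, the transcription factor that drives early inflammatory genes. RefSeq promoter windows on GRCm38.p6, 250 bases before and 50 after the start of transcription, matched 33 of the 46 members by symbol. Shown are the 250 bases before the start for Cxcl1, Cxcl2 and Cxcl10, inflammatory ligands whose windows hold kappaB-like letters, and for Cxcl12 and Ackr1, members that passed the test below and whose windows hold none of the letters searched; capitals mark matches on either strand. The kappaB-like letters searched were GGGANNNNCC, the AP-1 letters were TGANTCA, the CRE letters were TGACGTCA and the TATA box letters were TATAAA.
Cxcl1, chr5:90890995-90891244, plus strand: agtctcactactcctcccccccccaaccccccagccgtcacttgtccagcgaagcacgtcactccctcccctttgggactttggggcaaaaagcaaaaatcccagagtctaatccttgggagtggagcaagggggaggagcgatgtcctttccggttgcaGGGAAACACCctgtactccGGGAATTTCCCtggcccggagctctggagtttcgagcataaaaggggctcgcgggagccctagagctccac
Cxcl2, chr5:90903649-90903898, plus strand: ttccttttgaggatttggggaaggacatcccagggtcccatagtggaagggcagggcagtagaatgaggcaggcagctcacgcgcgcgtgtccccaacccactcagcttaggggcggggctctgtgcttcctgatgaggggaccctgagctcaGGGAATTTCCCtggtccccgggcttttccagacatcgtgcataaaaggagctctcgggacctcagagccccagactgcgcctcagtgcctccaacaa
Cxcl10, chr5:92348890-92349139, minus strand: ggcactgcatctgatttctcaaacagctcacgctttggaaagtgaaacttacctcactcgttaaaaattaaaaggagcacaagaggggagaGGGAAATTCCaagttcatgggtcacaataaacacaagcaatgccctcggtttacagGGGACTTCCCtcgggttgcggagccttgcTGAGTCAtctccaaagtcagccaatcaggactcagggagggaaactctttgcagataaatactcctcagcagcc
Cxcl12, chr6:117168285-117168534, plus strand: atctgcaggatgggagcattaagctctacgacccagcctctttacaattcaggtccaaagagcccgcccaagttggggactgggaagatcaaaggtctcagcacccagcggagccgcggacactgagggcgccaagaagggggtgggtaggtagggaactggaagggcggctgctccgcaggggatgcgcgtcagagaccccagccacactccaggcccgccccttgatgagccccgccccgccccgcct
Ackr1, chr1:173333504-173333753, minus strand: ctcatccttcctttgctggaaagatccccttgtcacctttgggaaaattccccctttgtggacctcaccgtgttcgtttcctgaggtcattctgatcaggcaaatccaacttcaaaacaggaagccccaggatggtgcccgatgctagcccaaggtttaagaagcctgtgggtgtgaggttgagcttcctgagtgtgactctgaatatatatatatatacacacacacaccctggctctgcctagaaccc

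The kappaB-like letters stood in 13 of the 33 member windows (39.4%) and in 22.9% of the 27025 genes with a window. In Cxcl1 the matches began 90 and 71 bases before the start, and the match at 71 overlapped one of the other strand 1 base further on. In Cxcl2 an overlapping pair of this kind began 97 bases before it. In Cxcl10 they began 159 and 103 bases before the start, with an AP-1 match 74 bases before it. The AP-1 letters were in 6 member windows (18.2%, against 8.97% of all genes), the TATA box letters in 11 (33.3%, against 15.7%) and the CRE letters in none (against 2.03% of all genes). None of the 13 genes with kappaB-like letters passed the test in any comparison, against 26.1%, 1.62% and 17.3% of all genes for 94 dB against 70 dB, 105 dB against 70 dB and 105 dB against 94 dB. Their median log2 fold change was 0.04, -0.09 and -0.16 in the same order of comparisons. With so few genes these counts are given as a description.

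Cxcl12 and its signalling receptor Cxcr4 stood highest in the family. Per kilobase of exon (RPKM, from scaled CPM), Cxcl12 had the highest level of all members at 72.2 ± 8.06 RPKM and its signalling receptor Cxcr4 the next at 68.1 ± 7.77 RPKM (SD over 12 libraries), a pair whose levels lay within each other's spread. Ackr3, the atypical receptor that scavenges Cxcl12, stood at 24.4 ± 1.48 RPKM. These 3 genes made up 45.8% of the RPKM summed over the 46 members, and Cxcl12 alone 20.1%. By CPM, which also rises with the length of a transcript, the shares were 62.9% and 46.7%. Cxcl14, a ligand of epithelia and connective tissue, had 34.4 ± 5.26 RPKM and Ccl6, a rodent ligand of Ccr1, 32.5 ± 5.83 RPKM, again within each other's spread. Cxcr2, the neutrophil receptor, followed with 18.6 ± 3.78 RPKM, Ackr1, the chemokine-binding receptor of red cells and venules, with 17.1 ± 2.58 RPKM, and Cx3cl1, the membrane-bound fractalkine, with 13.4 ± 1.27 RPKM. In all, 9 members had 10 RPKM or more, 16 had 1 to 10 RPKM and 21 had less than 1 RPKM. Ligands and receptors of one pair could differ widely: Cxcr2 had 18.6 RPKM while its ligands Cxcl5, Cxcl1 and Cxcl2 had 1.53, 0.392 and 0.134 RPKM, and Cxcr6 had 0.575 RPKM while its ligand Cxcl16 had 5.72 RPKM. Ccr1 had 10.7 ± 2.17 RPKM, below its ligand Ccl6 and close to its ligand Ccl9 at 9.21 ± 1.81 RPKM.

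**Figure D1:**
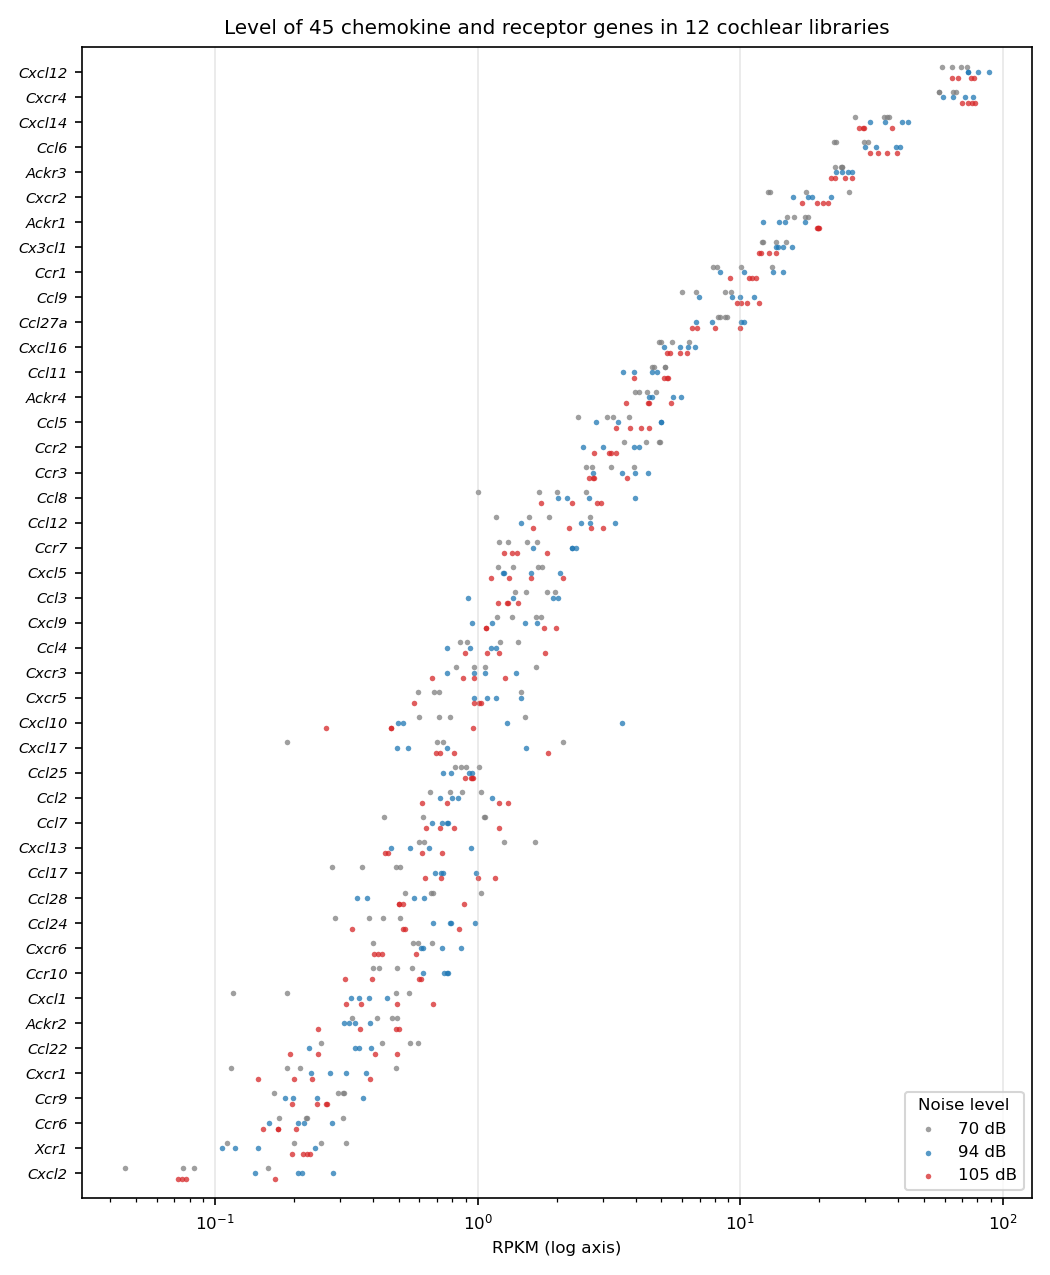
Level of 45 of the 46 genes in RPKM (log axis), ordered by the mean over 12 libraries, with 1 point per library coloured by noise level. Cxcl12 and Cxcr4 lie at the top near 72.2 and 68.1 RPKM and Cxcl2 at the bottom near 0.134 RPKM, and for most genes the 3 noise levels overlap.

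Few members passed the test between noise levels. With edgeR's quasi-likelihood test on all genes and an adjusted p under 0.05, 4 of the 46 were higher and 0 lower at 94 dB than at 70 dB (8.7% of members, against 26.1% of the 19497 genes tested), where 11 members had an unadjusted p under 0.05 (against 38.3% of all genes). By direction, 13.9% of all genes were higher and 12.2% lower. At 105 dB against 70 dB 0 were higher and 1 lower (2.17%, against 1.62% of all genes, 1.11% higher and 0.508% lower), with 8 at an unadjusted p under 0.05 (against 18.7%). Between 105 dB and 94 dB 1 was higher and 1 lower at 105 dB (4.35%, against 17.3% of all genes, 8.06% higher and 9.23% lower), with 7 at an unadjusted p under 0.05 (against 31.5%). Most members did not pass in any comparison, and the members' share at an adjusted p under 0.05 lay below the share of all genes in both comparisons that involve 94 dB. The median size of the log2 fold change, regardless of sign, was not smaller. It was 0.239, 0.160 and 0.195 for members and 0.217, 0.138 and 0.187 for all genes in the same order of comparisons. Genes of low level had larger standard errors, as given below, and the shares were not compared among genes of like level. The median log2 fold change of the members was 0.12, 0.03 and -0.07 in the same order of comparisons, and that of all genes -0.02, -0.0039 and 0.0015. The comparisons share libraries, so their values are set side by side and no likeness between them is drawn.

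**Figure D2:**
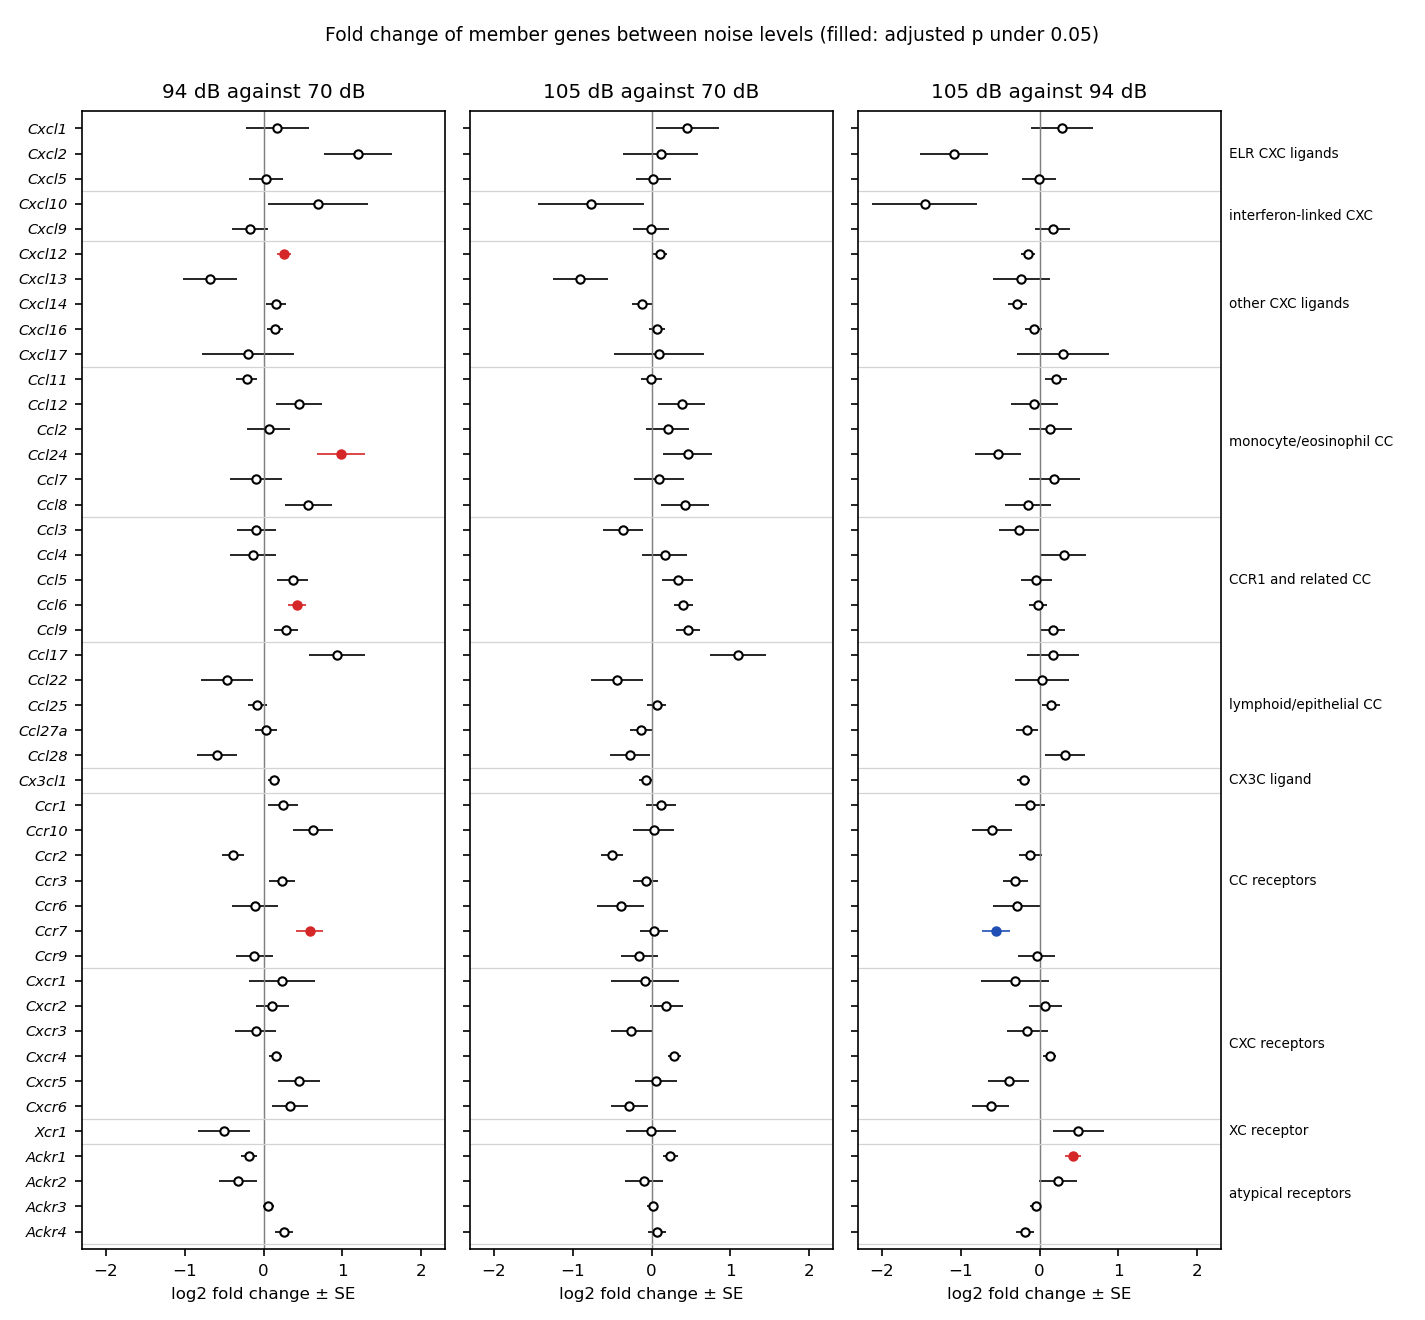
Log2 fold change of 45 members with its standard error for 94 dB against 70 dB, 105 dB against 70 dB and 105 dB against 94 dB, grouped by role, with filled points where edgeR's adjusted p was under 0.05. Filled points are Cxcl12, Ccl24, Ccl6 and Ccr7 on the left, and Ccr7 and Ackr1 on the right.

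Among the CXC ligands listed as homeostatic or other, Cxcl12 rose at 94 dB. It had 564, 525, 596 and 481 CPM at 70 dB, 602, 723, 602 and 658 CPM at 94 dB and 634, 618, 526 and 553 CPM at 105 dB. Every 94 dB library lay above every 70 dB library, while the 105 dB libraries overlapped both other groups. At 94 dB against 70 dB the log2 fold change was 0.26 ± 0.09 (SE; edgeR adjusted p = 0.0400), a 1.19-fold difference, and at 105 dB against 70 dB it was 0.11 ± 0.09 (adjusted p = 0.537). The call at 94 dB held in 13 of 21 alternatives and was lost without 70 dB replicate 2 (adjusted p = 0.0852) or 4 (0.112), 94 dB replicate 2 (0.110) or 4 (0.0837), 94 dB replicates 3 and 4 together (0.0955) or 105 dB replicate 2 (0.0527), with upper-quartile scaling (0.0663) and in a fit of only the 8 libraries compared (0.0529). Of the other 4 ligands of this class none passed in any comparison. Cxcl14 averaged 62.1 ± 8.16, 69.3 ± 10.4 and 57.1 ± 7.97 CPM at 70, 94 and 105 dB, and Cxcl16, the ligand of Cxcr6, 16.4 ± 2.03, 18.2 ± 2.12 and 17.2 ± 1.43 CPM (SD, n = 4 each). Exons of Cxcl16 overlap Zmynd15 on the other strand, so its counts are uncertain.

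The receptor of Cxcl12 did not pass in any comparison. Cxcr4 had 103, 120, 116 and 103 CPM at 70 dB, 107, 140, 116 and 130 CPM at 94 dB and 133, 138, 127 and 142 CPM at 105 dB. The 105 dB libraries all lay above the 70 dB libraries, with a log2 fold change of 0.29 ± 0.08 (SE) and an edgeR adjusted p of 0.0900, and over 21 alternatives that adjusted p ran between 0.0364 and 0.236, under 0.05 in 2. Ackr3 did not pass either, with 80.3 ± 2.18, 83.7 ± 5.10 and 81.1 ± 7.09 CPM at 70, 94 and 105 dB (SD, n = 4 each) and log2 fold changes of 0.06 ± 0.07 at 94 dB and 0.01 ± 0.07 at 105 dB against 70 dB (SE).

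None of the 3 CXC ligands with an ELR motif before the first cysteine, a class that draws neutrophils through Cxcr2, passed in any comparison. Cxcl1 had 0.351, 0.920, 1.03 and 0.22 CPM at 70 dB, 0.618, 0.850, 0.663 and 0.723 CPM at 94 dB and 0.923, 0.591, 0.676 and 1.27 CPM at 105 dB. The control libraries were the most spread of the 3 groups, and all groups overlapped. Its log2 fold change was 0.17 ± 0.40 at 94 dB and 0.45 ± 0.40 at 105 dB against 70 dB (SE), with 95% intervals of -0.68 to 1.02 and -0.38 to 1.29. Cxcl2 had 0.328, 0.0943, 0.172 and 0.157 CPM at 70 dB, 0.294, 0.584, 0.442 and 0.429 CPM at 94 dB and 0.150, 0.156, 0.161 and 0.350 CPM at 105 dB, which were 4 to 22 counts per library. Its log2 fold change was 1.20 ± 0.43 at 94 dB against 70 dB (SE; edgeR adjusted p = 0.0511), with an adjusted p under 0.05 in 3 of 20 alternatives, and -1.08 ± 0.43 at 105 dB against 94 dB (adjusted p = 0.0959). Without 94 dB replicates 3 and 4 together these values were 1.21 (adjusted p = 0.203) and -1.09 (0.345). Of its 50-base stretches, 5.35% also occur in Cxcl3, so its few counts are uncertain. Cxcl5, the most abundant of this class, averaged 2.80 ± 0.500, 2.88 ± 0.714 and 2.87 ± 0.796 CPM at 70, 94 and 105 dB (SD, n = 4 each).

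Cxcl10, which draws activated T cells through Cxcr3 and is induced by interferons, was uneven within groups. It had 3.42, 1.77, 1.34 and 1.60 CPM at 70 dB, 1.12, 1.17, 2.90 and 7.99 CPM at 94 dB and 0.599, 1.06, 2.16 and 1.05 CPM at 105 dB. The highest value, in 94 dB replicate 4, was above that of any other library, and the groups overlapped. The log2 fold change was 0.69 ± 0.63 at 94 dB against 70 dB, -0.77 ± 0.67 at 105 dB against 70 dB and -1.46 ± 0.66 at 105 dB against 94 dB (SE), with edgeR adjusted p-values of 0.463, 0.571 and 0.162. The first turned to -0.25 without 94 dB replicate 4 and to -0.83 without 94 dB replicates 3 and 4 together, and the third was -0.51 and 0.07 in the same settings, so the direction at 94 dB rests on these libraries. Its exons overlap Art3 on the other strand, so without a stated strand its counts are uncertain. Cxcl9, the other interferon-linked ligand, averaged 4.48 ± 0.785, 3.98 ± 1.01 and 4.48 ± 1.44 CPM at 70, 94 and 105 dB, and Cxcr3, the receptor of both, 1.96 ± 0.643, 1.82 ± 0.456 and 1.64 ± 0.437 CPM (SD, n = 4 each).

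**Figure D3:**
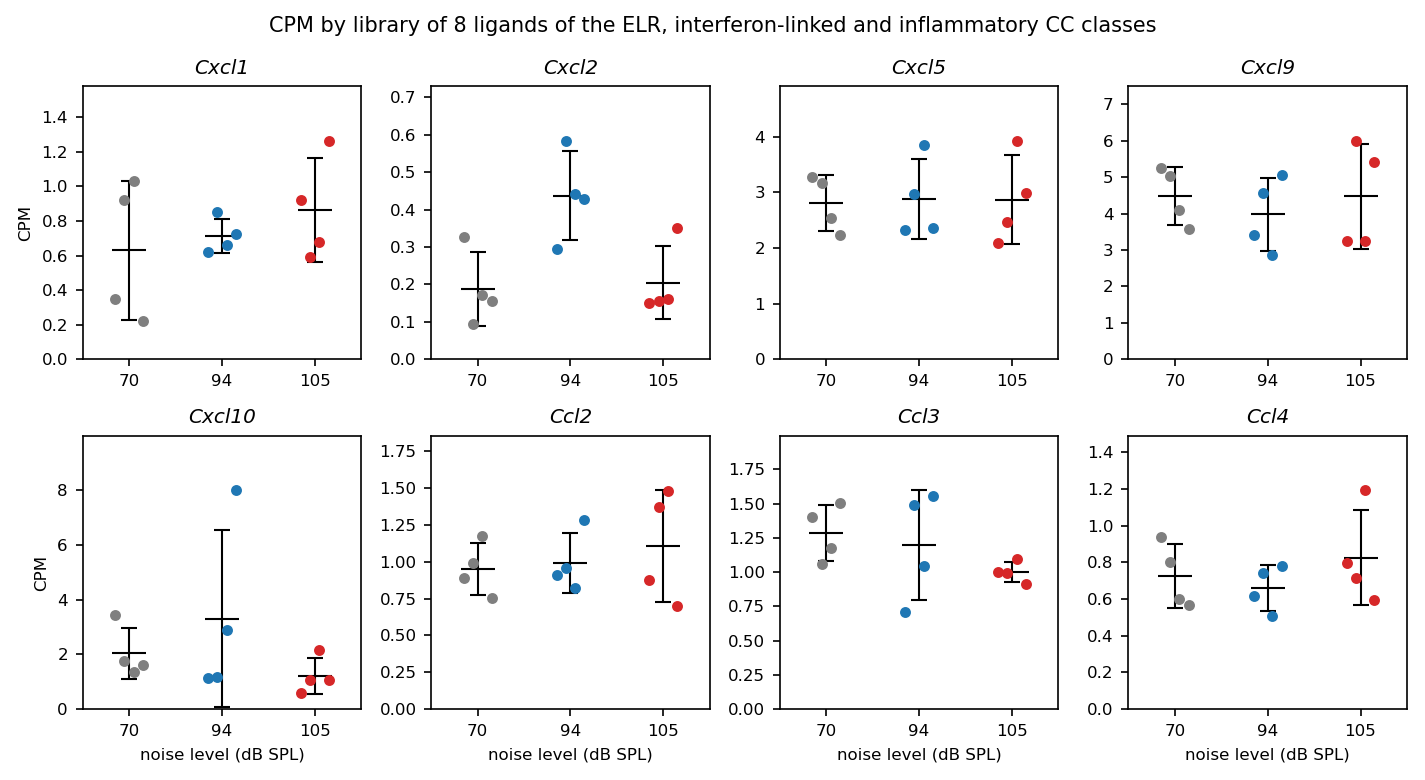
CPM in each library (points) with the mean and SD of 4 libraries (bars) at 70, 94 and 105 dB SPL for 8 ligands of the ELR, interferon-linked and inflammatory CC classes. All 8 overlap between noise levels, and the one far point is Cxcl10 at 7.99 CPM in a 94 dB library.

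Among the CC ligands of monocytes and eosinophils, Ccl24, an eosinophil attractant that acts through Ccr3, rose at 94 dB. It had 0.656, 0.566, 0.372 and 0.502 CPM at 70 dB, 1.03, 0.877, 1.26 and 1.02 CPM at 94 dB and 1.10, 0.685, 0.676 and 0.431 CPM at 105 dB. The 94 dB libraries all lay above the 70 dB libraries, and the 105 dB libraries overlapped both. In log2 terms 94 dB differed from 70 dB by 0.98 ± 0.30 (SE; edgeR adjusted p = 0.0245), the largest rise among the members that passed, on 13 to 44 counts per library. The call held in 14 of 21 alternatives and was lost without 70 dB replicate 3 (adjusted p = 0.0668) or 4 (0.0509), 94 dB replicate 3 (0.0743) or 4 (0.0502) or both of these (0.182), and with the trend on GC content and exon length removed, alone (0.0802) or with the replicate block (0.0636). The other 5 ligands of this class did not pass in any comparison. Ccl11, also an eosinophil attractant, averaged 5.32 ± 0.324, 4.58 ± 0.627 and 5.32 ± 0.715 CPM at 70, 94 and 105 dB (SD, n = 4 each). Ccl8 averaged 0.936 ± 0.335, 1.39 ± 0.454 and 1.26 ± 0.289 CPM and Ccl12 0.979 ± 0.343, 1.34 ± 0.417 and 1.28 ± 0.324 CPM at the same levels. Ccl2, the main monocyte attractant, lies outside the rule for named genes and was chosen after its values were seen: it had 0.753 to 1.17, 0.820 to 1.29 and 0.700 to 1.48 CPM at 70, 94 and 105 dB, and the groups overlapped.

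Among the CC ligands that bind Ccr1 or related receptors, Ccl6 rose at 94 dB. This myeloid-cell chemokine had 41.0, 54.8, 53.0 and 41.8 CPM at 70 dB, 53.7, 73.1, 59.2 and 70.1 CPM at 94 dB and 56.1, 65.2, 70.8 and 60.2 CPM at 105 dB. At 105 dB every library lay above every 70 dB library, and at 94 dB all but replicate 1 did. The log2 fold change was 0.43 ± 0.12 at 94 dB (edgeR adjusted p = 0.0161) and 0.40 ± 0.12 at 105 dB (adjusted p = 0.0973) against 70 dB (SE), so folds of similar size fell on different sides of the threshold. At 105 dB the adjusted p was under 0.05 in 3 of 21 alternatives: DESeq2 (0.0283), the replicate block (0.0212) and the block with the trend on GC content and exon length removed (0.0309). For 105 dB against 94 dB it was -0.02 ± 0.12 (SE; adjusted p = 0.919). The 94 dB call was lost without 70 dB replicate 4 (adjusted p = 0.0508), 94 dB replicate 4 (0.0540) or 94 dB replicates 3 and 4 together (0.112), and the log2 fold change without this pair was 0.42. Ccl9, its neighbour on chromosome 11, had 18.4, 28.1, 26.6 and 20.6 CPM at 70 dB, 21.2, 30.3, 28.3 and 34.4 CPM at 94 dB and 30.6, 29.7, 36.1 and 32.4 CPM at 105 dB. Its 105 dB libraries lay above all 70 dB libraries, with a log2 fold change of 0.46 ± 0.15 (SE) and an edgeR adjusted p of 0.141. Ccl5, a T cell and monocyte attractant, averaged 3.02 ± 0.541, 3.89 ± 1.06 and 3.80 ± 0.469 CPM at 70, 94 and 105 dB (SD, n = 4 each) and did not pass. Beside these values, the 11 macrophage markers summed to 1529 to 2192, 1849 to 2802 and 1734 to 2187 CPM at 70, 94 and 105 dB and the 6 monocyte markers to 834 to 1073, 898 to 1384 and 1144 to 1266 CPM, with none at 0. Their part in the result was not tested.

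The ligands of lymphoid and epithelial sites did not pass. Ccl17, a T cell attractant made by dendritic cells, had 0.187, 0.259, 0.143 and 0.251 CPM at 70 dB, 0.353, 0.372, 0.379 and 0.509 CPM at 94 dB and 0.599, 0.373, 0.515 and 0.323 CPM at 105 dB. Both noise groups lay wholly above the 70 dB libraries. The log2 fold changes of 0.93 ± 0.36 at 94 dB and 1.10 ± 0.35 at 105 dB against 70 dB (SE) had edgeR adjusted p-values of 0.0637 and 0.127 on 5 to 24 counts per library, and neither was under 0.05 in any alternative. Ccl25, a thymus and gut chemokine, averaged 6.69 ± 0.627, 6.34 ± 0.762 and 6.99 ± 0.227 CPM at 70, 94 and 105 dB (SD, n = 4 each). Its exons overlap Elavl1 on the other strand, so without a stated strand its counts are uncertain. Ccl27a had 15.6 to 24.6 CPM over all libraries, but 69.2% of its 50-base stretches also occur in other annotated genes, so its counts are uncertain. Cx3cl1, which tethers cells that carry Cx3cr1, had 58.8, 53.7, 47.7 and 48.1 CPM at 70 dB, 57.1, 53.8, 62.0 and 54.9 CPM at 94 dB and 53.6, 47.2, 46.3 and 50.7 CPM at 105 dB. Its 105 dB libraries lay below all 94 dB libraries, with a log2 fold change of -0.20 ± 0.08 (SE; edgeR adjusted p = 0.0847), which ran between -0.24 and -0.03 over 21 alternatives.

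Of the CC receptors, Ccr7 rose at 94 dB, and Ccr2 was lower in every 105 dB library without passing. Ccr2, the receptor of inflammatory monocytes, had 29.5, 33.3, 33.2 and 24.3 CPM at 70 dB, 20.3, 26.8, 17.1 and 27.8 CPM at 94 dB and 21.8, 18.8, 21.4 and 22.7 CPM at 105 dB. Its 105 dB libraries lay below all 70 dB libraries, but the adjusted p missed the threshold, at 0.0876 for a log2 fold change of -0.51 ± 0.14 (SE) at 105 dB and 0.0554 for -0.39 ± 0.14 (SE) at 94 dB, both against 70 dB. It was under 0.05 in 4 of 21 alternatives at 105 dB (lowest 0.0167, with DESeq2) and in 5 of 21 at 94 dB (lowest 0.0276, without 94 dB replicate 4). Of the 50-base stretches of Ccr2, 2.27% also occur in other genes.

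A receptor outside the member rule was lower in both noise groups. Cx3cr1, the fractalkine receptor and a marker of resident macrophages and patrolling monocytes, averaged 23.7 ± 2.85, 15 ± 1.46 and 13.4 ± 1.52 CPM at 70, 94 and 105 dB (SD, n = 4 each), and fell by 0.66 at 94 dB and 0.82 at 105 dB on the log2 scale against 70 dB (edgeR adjusted p = 5.37e-04 and 4.29e-04). Without 94 dB replicates 3 and 4 the value at 94 dB was -0.57 (adjusted p = 0.0169). Of the 11 macrophage markers it was the only one lower in either comparison. In 94 dB against 70 dB 4 markers, Adgre1, C1qa, C1qb and C1qc, were higher, of which C1qa and C1qc also passed without that pair, while at 105 dB against 70 dB none was higher. The 6 monocyte markers summed to 834 to 1073, 898 to 1384 and 1144 to 1266 CPM at 70, 94 and 105 dB. Of these, 1 was higher and 0 lower at 94 dB against 70 dB (0 higher without that pair), and 0 passed at 105 dB against 70 dB. For both lists, the shares of all genes were 13.9% higher and 12.2% lower at 94 dB against 70 dB. At 105 dB against 70 dB they were 1.11% higher and 0.508% lower. The part of macrophage or monocyte number in the Ccr2 values was not tested.

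Ccr7, which steers lymphocytes and mature dendritic cells to lymph nodes, had 3.04, 2.38, 3.32 and 2.57 CPM at 70 dB, 3.21, 4.54, 4.51 and 4.69 CPM at 94 dB and 2.79, 2.49, 3.64 and 2.67 CPM at 105 dB. At 94 dB replicates 2, 3 and 4 lay above all libraries of the other groups, and replicate 1 lay within them. It was higher at 94 dB than at 70 dB, with a log2 fold change of 0.58 ± 0.17 (SE; edgeR adjusted p = 0.0221), and lower at 105 dB than at 94 dB, with -0.55 ± 0.18 (SE; adjusted p = 0.0395). The difference of 105 dB from 70 dB was 0.03 ± 0.18 on the log2 scale (SE; adjusted p = 0.940). The first call was lost without 70 dB replicate 2 (adjusted p = 0.0620) or 4 (0.0518), 94 dB replicate 3 (0.0588) or 4 (0.0686) or both of these (0.215), and after removal of the trend on GC content and length, alone (0.118) or with the replicate block (0.113). The second was lost in 10 of 21 alternatives: without 94 dB replicate 2 (0.0803), 3 (0.105), 4 (0.116) or the pair of 3 and 4 (0.344), without 105 dB replicate 1 (0.0857), 2 (0.113) or 4 (0.105), with no filter on low counts (0.0513) and with that trend removed, alone (0.106) or with the block (0.103). Beside these values, 8 T cell markers summed to 29.9 to 36.2, 35.0 to 44.3 and 30.0 to 34.2 CPM at 70, 94 and 105 dB, and 8 B cell markers to 141 to 193, 195 to 211 and 165 to 224 CPM, with none at 0. In the 94 dB against 70 dB comparison 1 of the T cell markers, Cd3d, and 1 of the B cell markers, Cd79a, were higher, and Cd79a was lower at 105 dB than at 94 dB (log2 fold change -0.43, edgeR adjusted p = 0.0109). The 6 dendritic cell markers summed to 46.6 to 50.7, 45.0 to 58.5 and 47.6 to 54.3 CPM at 70, 94 and 105 dB, with none at 0. Of these Batf3 alone passed, with log2 fold changes of 0.88 at 94 dB against 70 dB (adjusted p = 0.00561) and -0.82 at 105 dB against 94 dB (0.0140). Without 94 dB replicates 3 and 4, Cd79a passed at 94 dB against 70 dB, and the other calls of Cd3d, Cd79a and Batf3 were lost. Of all genes tested, 13.9% were higher and 12.2% lower at 94 dB than at 70 dB. At 105 dB against 94 dB 8.06% were higher and 9.23% lower. With lists of 8, 8 and 6 genes, 1 call in each is near these shares. The part of these cell types in the result was not tested.

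Neither Ccr1 nor Ccr3 passed. Ccr1, a receptor of neutrophils and macrophages, averaged 27.9 ± 6.95, 32.9 ± 7.97 and 30.2 ± 3.0 CPM at 70, 94 and 105 dB, and Ccr3, the eosinophil receptor, 10.2 ± 2.0, 12 ± 2.35 and 9.72 ± 1.62 CPM (SD, n = 4 each). All 8 CC receptors had a negative log2 fold change at 105 dB against 94 dB, between -0.60 and -0.04, of which Ccr7 alone passed. The median over all genes was 0.0015. These signs rest on the same 94 dB libraries and are not separate results. Over 21 alternatives the value of Ccr1 came as near to 0 as -0.0014 and that of Ccr2 as -0.011. Against 70 dB, 4 of the 8 were positive at 94 dB and 3 of the 8 at 105 dB. Ccr10, named after its values were seen, had 1.07 to 1.33 CPM at 94 dB, above all 70 dB libraries at 0.690 to 0.973 CPM and all 105 dB libraries at 0.538 to 1.05 CPM, without passing.

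Of the 6 CXC receptors and Xcr1 none passed. Cxcr2 had 39.7, 54.2, 79.1 and 38.8 CPM at 70 dB, 55.5, 67.7, 48.3 and 57.3 CPM at 94 dB and 59.9, 62.9, 52.3 and 65.8 CPM at 105 dB, so the control libraries alone spanned more than both noise groups. Its log2 fold change was 0.11 ± 0.21 at 94 dB and 0.19 ± 0.21 at 105 dB against 70 dB (SE). Beside it, 4 of the 11 neutrophil markers, S100a8, S100a9, Mpo and Camp, were higher and 0 lower at 94 dB than at 70 dB. Of all genes 13.9% were higher and 12.2% lower. Without 94 dB replicates 3 and 4, Mpo alone of these markers was higher. The means of Retnlg and Mmp8 were lower at 94 dB (282 and 150 CPM) than at 70 dB (306 and 160 CPM), without passing. Those of the other neutrophil markers were higher. Cxcr6, a receptor of T and natural killer cells, had 1.15, 1.30, 0.772 and 1.10 CPM at 70 dB, 1.41, 1.67, 1.20 and 1.18 CPM at 94 dB and 1.12, 0.809, 0.837 and 0.781 CPM at 105 dB. Its 105 dB libraries lay below all 94 dB libraries, with a log2 fold change of -0.62 ± 0.23 (SE; edgeR adjusted p = 0.0796). Xcr1, the receptor of cross-presenting dendritic cells, averaged 0.979 ± 0.384, 0.681 ± 0.270 and 0.965 ± 0.0656 CPM at 70, 94 and 105 dB (SD, n = 4 each).

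Among the atypical receptors, Ackr1 was higher at 105 dB than at 94 dB. It had 21.2, 25.5, 24.9 and 22.5 CPM at 70 dB, 20.9, 24.8, 19.7 and 17.2 CPM at 94 dB and 27.5, 27.7, 27.8 and 28.0 CPM at 105 dB. Every 105 dB library lay above every other library, and the SD was 0.191 CPM at 105 dB, against 3.15 CPM at 94 dB and 2.0 CPM at 70 dB. The log2 fold change was 0.43 ± 0.10 at 105 dB against 94 dB (SE; edgeR adjusted p = 0.00875), 0.24 ± 0.10 at 105 dB against 70 dB (adjusted p = 0.202) and -0.19 ± 0.10 at 94 dB against 70 dB (adjusted p = 0.170). This last value was a call in 3 of 21 alternatives: with the trend on GC content and exon length removed (-0.35, adjusted p = 0.0475), with the replicate block and that trend removed (-0.36, 0.0416) and without 94 dB replicate 2 (-0.28, 0.0364). The call at 105 dB against 94 dB held in 20 of 21 alternatives and was lost without 94 dB replicates 3 and 4 together, where the log2 fold change was 0.28 (adjusted p = 0.163). Ackr1 shares exon sequence with Cadm3 on the same strand, at 6.07% of its 50-base stretches, so part of its count is uncertain. Beside it, the 8 endothelial markers summed to 493 to 523, 493 to 529 and 509 to 532 CPM at 70, 94 and 105 dB. Between 105 dB and 94 dB 1 of the 8 was higher, Emcn, a marker of veins and capillaries, at 51.0 ± 2.10 CPM at 105 dB and 36.6 ± 3.79 CPM at 94 dB (SD, n = 4 each), and 1 was lower, Cldn5, a tight junction protein, at 24.7 ± 6.15 CPM at 105 dB and 39.2 ± 6.58 CPM at 94 dB. Emcn passed without 94 dB replicates 3 and 4 (edgeR adjusted p = 0.0274) and Cldn5 did not (0.202). The other 6 endothelial markers did not pass. Of all genes tested 8.06% were higher and 9.23% lower at 105 dB than at 94 dB, so 1 of 8 each way is near these shares. The erythroid sums are given above. The part of endothelial or erythroid cells in the result was not tested. Ackr4, which scavenges the ligands of Ccr7 and Ccr9, averaged 23.2 ± 1.89, 27.7 ± 3.87 and 24.4 ± 3.97 CPM (SD, n = 4 each) and did not pass, and its exons overlap Acad11 on the other strand.

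**Figure D4:**
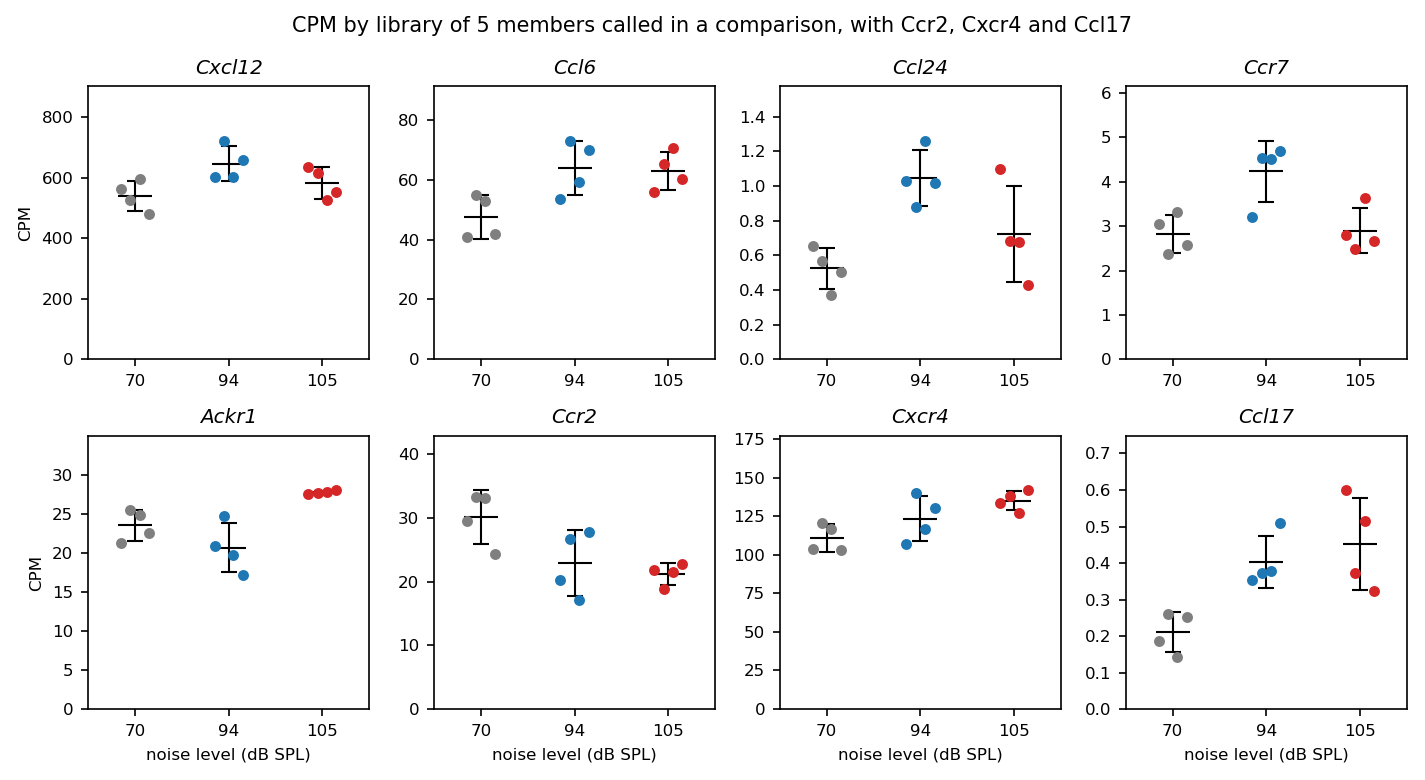
CPM in each library (points) with the mean and SD of 4 libraries (bars) at 70, 94 and 105 dB SPL for Cxcl12, Ccl6, Ccl24, Ccr7 and Ackr1, which passed in a comparison, with Ccr2, Cxcr4 and Ccl17 added. The 4 points of Ackr1 at 105 dB lie together above all others, and Ccl17 at both noise levels lies above its 70 dB points.

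Members were also counted by whether the libraries of both groups overlapped. At 94 dB against 70 dB 5 members did not overlap (10.9%, against 25.4% of all genes), among them Ccl17, Ccl24, Ccr10 and Cxcl12, which were higher. In the 105 dB against 70 dB comparison 7 did not (15.2%, against 10.8% of all genes, 5.78% higher and 5.03% lower), among them Ackr1, Ccl17, Ccl6, Ccl9 and Cxcr4, which were higher, and Ccr2, which was lower. Between 105 dB and 94 dB 4 did not (8.7%, against 21.3% of all genes): Ackr1 was higher and Ccr10, Cx3cl1 and Cxcr6 lower at 105 dB. For 105 dB against 94 dB the log2 fold change was negative in 14 of the 19 receptors, with a median of -0.16, and in 15 of the 27 ligands, with a median of -0.02. The median over all genes was 0.0015. All these signs rest on the same 94 dB libraries, so the members are not separate results.

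The genome position of the members was set beside their values, since chemokine genes sit in tandem clusters (mm10, members at most 500000 bases apart). In all 27 members lay in 7 clusters. On chromosome 9 lay Ccr9, Cxcr6, Xcr1, Ccr1, Ccr3 and Ccr2, with log2 fold changes at 105 dB against 70 dB of -0.16, -0.28, -0.01, 0.12, -0.07 and -0.51, and none of these 6 passed in any comparison. On chromosome 11, bases 83525778 to 83664683, lay Ccl5, Ccl9, Ccl6, Ccl3 and Ccl4, of which Ccl6 alone passed, at 94 dB against 70 dB. No member of the monocyte-attractant cluster of Ccl2, Ccl7, Ccl11, Ccl12 and Ccl8 (chromosome 11, 82035571 to 82116799), or of the cluster of Cxcl5, Cxcl1 and Cxcl2 (chromosome 5, 90759360 to 90905938), passed in any comparison.

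Some regulators of chemokine genes rose at both noise levels. Of 14 listed regulators, 6 were higher and 0 lower at 94 dB than at 70 dB, 3 higher and 0 lower at 105 dB than at 70 dB, and 0 higher and 4 lower at 105 dB than at 94 dB. Of all genes tested 13.9% were higher and 12.2% lower, 1.11% higher and 0.508% lower, and 8.06% higher and 9.23% lower in the same order. Nfkbia, the feedback inhibitor of NF-kappaB, averaged 57.8 ± 4.96, 125 ± 10.5 and 130 ± 2.93 CPM at 70, 94 and 105 dB, and Zfp36, which destabilises the messages of cytokines and chemokines, 48.8 ± 7.26, 92.6 ± 10.7 and 92.0 ± 4.60 CPM (SD, n = 4 each). Cebpb, a transcription factor of inflammatory genes, averaged 22.9 ± 4.05, 140 ± 36.2 and 96.7 ± 8.75 CPM. These 3 passed at both noise levels against 70 dB (log2 fold changes of 1.11, 0.92 and 2.61 at 94 dB and 1.16, 0.91 and 2.07 at 105 dB for Nfkbia, Zfp36 and Cebpb), with edgeR adjusted p-values between 2.05e-07 and 5.85e-05. Relb, Nfkb2 and Irf1 were the others higher at 94 dB than at 70 dB, and these 3 and Cebpb were lower at 105 dB than at 94 dB. Nfkb2 was no longer called at 94 dB against 70 dB without 94 dB replicates 3 and 4 (adjusted p = 0.0957), and of these 4 genes Irf1 alone was then lower at 105 dB than at 94 dB.

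Downstream of the receptors, 32 listed signalling genes had 4 higher and 2 lower at 94 dB against 70 dB, 1 higher and 0 lower at 105 dB against 70 dB, and 5 higher and 2 lower at 105 dB against 94 dB. The 6 called at 94 dB against 70 dB were a smaller share of the list than the 26.1% called among all genes, and 1.62% and 17.3% of all genes were called in the other comparisons. Rgs1, which shortens signalling by G protein-coupled chemokine receptors, had 1.55, 1.56, 1.92 and 1.60 CPM at 70 dB, 2.65, 3.77, 3.60 and 3.62 CPM at 94 dB and 5.94, 6.69, 4.51 and 6.41 CPM at 105 dB. None of the 3 groups overlapped another, and the log2 fold change was 1.04 at 94 dB and 1.83 at 105 dB against 70 dB (edgeR adjusted p = 5.85e-04 and 6.95e-06) and 0.79 at 105 dB against 94 dB (adjusted p = 0.00506). Without 94 dB replicates 3 and 4 the last of these was 0.87 (adjusted p = 0.0616), and both values against 70 dB passed. Gnb2, Arrb2 and Grk6, a G protein subunit, an arrestin and a receptor kinase, were the others higher at 94 dB than at 70 dB, and Elmo1 and Rgs18 were lower, a pair not called without those libraries (adjusted p = 0.0581 and 0.0932). Of 20 chemotactic relatives, 5 were higher and 2 lower at 94 dB, and 2 higher and 1 lower at 105 dB, against 70 dB, beside the same shares of all genes; without those libraries 1 was higher and 2 lower at 94 dB. The platelet chemokines Pf4 and Ppbp were the higher pair at 105 dB, with log2 fold changes of 0.58 and 0.45 (edgeR adjusted p = 0.00417 and 0.0240). Platelet and megakaryocyte markers, a list that includes both genes, summed to 992 to 1138, 1042 to 1314 and 1419 to 1521 CPM at 70, 94 and 105 dB. Of that list Pf4 and Ppbp alone passed at 105 dB against 70 dB, so the sum is not separate from these genes. The median log2 fold change of the 6 listed genes was 0.354 in this comparison. In the fit without 94 dB replicates 3 and 4, which keeps all libraries of this comparison, 4 of the 6 were higher, against 1.22% of all genes.

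The precision of these values followed the level of the gene. The 13 members under 1 CPM had a median standard error of the log2 fold change of 0.33, the 18 at 1 to 10 CPM 0.24 and the 15 over 10 CPM 0.12.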

How the data were processed

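RNA-seq of 12 mouse cochlea libraries, 4 at each of 3 noise levels, was read from 1 table of raw counts per Ensembl gene, as deposited. Per the submitters' processing notes the authors used CASAVA, STAR and featureCounts 1.5.0-p3 with build mm10 to make these counts; what settings and gene models they used, and how strand and multiply aligned reads were handled, is not given in the sources used here. The counts of genes that overlap or share sequence with another gene are therefore uncertain. Not all such genes are marked where their values are given. Exons of 8 members overlap another gene: Ackr1, Ackr4, Ccl25, Ccl27a, Ccr9, Cxcl10, Cxcl16 and Cxcr5. Of the members, 35 share no stretch of 50 bases with another gene, while Cxcr2 (4.07%), Cxcl5 (2.59%) and Ccl9 (2.00%) share some. The sample titles gave each library's noise level and replicate number, and table columns were joined to samples through their names.

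Of 35496 gene identifiers, 35474 matched GENCODE M21 for GRCm38, which supplied symbols, positions and exon lengths; the rest held 0.00378% of counts. Counts were tested with edgeR 4.0.16 in R 4.3.3 by the quasi-likelihood test with robust dispersions, after filterByExpr (minimum count 10; 19497 genes and 99.9% of counts kept; all 46 members kept), with TMM factors and 1 mean per group over all 12 libraries, which left 9 residual degrees of freedom and gave a common BCV (biological coefficient of variation) of 0.133. The Benjamini-Hochberg adjustment ran over all genes tested, at a threshold of 0.05 without a fold limit. Standard errors were derived from the F statistic. CPM are TMM-scaled, and RPKM are these per kilobase of merged exons. Intervals and the floor of 3 counts cover counting error or sample spread only. Shared sequence was counted as exact windows of 50 bases found in transcripts of other genes.

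On data simulated for the 105 dB against 70 dB comparison over 19497 genes, with 200 genes changed, the fit recovered 74.6%, 94.0% and 100% of those changed 1.5-fold, 2-fold and 4-fold, with 9 false calls. The changed genes were drawn only from those with a mean over 1 CPM. The simulated spread followed the fitted trend with level rather than each gene's own spread. These shares therefore do not cover the 13 members under 1 CPM. They are pooled over genes of all levels above 1 CPM and were not split by level. They do not give the share for the 18 members at 1 to 10 CPM, whose median standard error was 0.24, against 0.12 for members over 10 CPM.

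Members were named with full values if they passed in any comparison, were among the 3 highest of their role by RPKM, or had 1 of the 5 smallest p-values in a comparison (32 members). The values of 1 member are not reported here, and counts over the members include it. The members, roles and lists were chosen with earlier results of these data known. Replicate numbers were not taken as pairs. Alternatives were other scalings (DESeq2's size factors, upper-quartile), no filter, a fit of 8 libraries, a replicate block, removal of a trend on GC content and exon length, DESeq2 1.42.0, each library left out, and 94 dB replicates 3 and 4 left out together.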

Additional observations from a re-analysis of the deposited data

Results flagged for a closer look

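Within each group of 4 libraries, a library was marked when its distance to the nearest other library took a larger share of the group's whole range than Dixon's critical value at 95% for 4 samples. Chance marks about 1 in 20 groups, and 15 of the 138 groups of 46 genes at 3 levels were marked. The values below are CPM, and several of these genes lie outside the rule for named genes.

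At 105 dB, Ccl11 was low in replicate 4 (4.25, against 5.54 to 5.76 in the others), as was Cxcr5 (1.91, against 3.22 to 3.42), while Cxcl2 was high in that replicate (0.350, against 0.150 to 0.161). Replicate 3 at 105 dB was high for Ccl28 (4.31, against 2.42 to 2.52), Cxcl14 (68.9, against 51.7 to 54.2) and Cxcl17 (1.42, against 0.529 to 0.619). Ccr3 was high in replicate 2 (12.1, against 8.67 to 9.11) and Cxcr6 in replicate 1 (1.12, against 0.781 to 0.837) at 105 dB.

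At 94 dB, Ccl17 was high in replicate 4 (0.509, against 0.353 to 0.379). Ccr10 was low in replicate 3 (1.07, against 1.29 to 1.33) and Ccr7 in replicate 1 (3.21, against 4.51 to 4.69).

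At 70 dB, Ackr3 was low in replicate 1 (77.1, against 81.4 to 81.5) and Ccr9 in replicate 4 (1.73, against 3.02 to 3.18). Replicate 3 at 70 dB was low for Cxcl14 (49.9, against 64.7 to 67.5) and high for Cxcr5 (4.86, against 1.98 to 2.38). For Cxcl14 the marked libraries were on opposite sides of their groups at 105 and 70 dB.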

How the results depend on the processing

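Members called numbered 4 at 94 dB against 70 dB, 1 at 105 dB against 70 dB and 2 at 105 dB against 94 dB. With each library left out in turn these counts ran between 1 and 7, 0 and 2, and 1 and 3. The settings with 1 call at 94 dB against 70 dB, without 70 dB replicate 4 or without 94 dB replicate 4, called Ccr2 alone, as lower. Without 94 dB replicates 3 and 4 together the counts were 0, 2 and 0. In that fit, which has fewer 94 dB libraries, 1610, 341 and 217 genes were called over the whole table in place of 5085, 316 and 3372. DESeq2 gave 5 at 105 dB against 70 dB, and 6 and 2 in the other comparisons. With no filter on low counts the counts were 2 at 105 dB against 70 dB and 1 at 105 dB against 94 dB, and in a fit of only the 8 libraries compared 2 at 105 dB against 70 dB. Removing a trend on GC content and exon length gave 1 at 105 dB against 94 dB. For these changes the cause was not tested. Libraries of the same replicate number deviated together with correlations of -0.136 to 0.186, and 4 of 12 libraries correlated best with their own number, so the numbers were not taken as pairs; with the replicate block the counts were 4, 2 and 2, and with the block and that trend removed 4, 3 and 1.

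The log2 fold change of Ccr7 at 105 dB against 70 dB, 0.03, turned to -0.045 with the trend removed and -0.044 with the block and the trend removed; with each library left out it ran between -0.091 and 0.12, below 0 without 70 dB replicate 2, 70 dB replicate 4 or 105 dB replicate 3. That of Ccl6 at 105 dB against 94 dB, -0.02, ran between -0.0996 and 0.048, above 0 without 94 dB replicate 2 or 4 or 105 dB replicate 1 or 4. None of these values passed the test.

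Of 96 log2 fold changes of named members, 33 turned sign in at least 1 alternative. Those of Cxcl10 at 94 dB against 70 dB and at 105 dB against 94 dB, 0.69 and -1.46, turned without 94 dB replicates 3 and 4 together, to -0.83 and 0.07. The others that turned were at most 0.17 in size, the value of Cxcl1 at 94 dB against 70 dB.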
